A study of Rattus norvegicus with 6 samples.

Results

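The Eph, ephrin, Slit, Robo and netrin guidance genes of rat retinal ganglion cells (RGCs, whose axons form the optic nerve) in culture are described here. They were chosen by symbol: every gene of the table named Epha, Ephb, Efna, Efnb, Slit or Robo with a number, every Ntn gene, every Unc5 gene with a letter, and Dcc, Neo1, Rgma and Rgmb. This gave 38 of the 17366 genes in the table, all of them protein-coding. They were 7 EphA receptors, 4 EphB receptors, 4 ephrin-A ligands, 3 ephrin-B ligands, 3 Slits, 4 Robos, 6 netrins and netrin-Gs, Rgma and Dcc, and 5 Unc5 genes. Epha6, Epha8, Ephb4, Efna3, Neo1 and Rgmb were not analysed here.

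Polyadenylated RNA was sequenced from RGC cultures of Sprague Dawley rats with the age label P5, grown for 10 days at 10% CO2. For the last 12 h, 3 libraries had received Chrdl1, a secreted antagonist of bone morphogenetic proteins (BMPs), at 1 µg/ml. The other 3 had received only its vehicle, which was 0.1% BSA with 4 mM HCl. The question of the design is which transcripts differ after Chrdl1. The library titles hold a 6-digit code, and each of the 3 codes is shared by 1 vehicle and 1 Chrdl1 library, called pairs A, B and C in rising order of the code. What the code stands for is not in the labels, and neither is whether libraries came from separate animals or cultures, so each p-value measures the spread between these libraries, which may be technical. In the labels, the extraction protocol names visual cortex for the RNA, whereas all other entries name RGC culture.

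As background, EphA receptors bind mainly the lipid-anchored ephrin-As and EphB receptors mainly the transmembrane ephrin-Bs, and graded Eph and ephrin levels across the retina help RGC axons to find their place in visual targets. Slits are secreted ligands of Robo receptors and keep RGC axons out of wrong territory. Netrin-1 attracts axons through Dcc and repels them through Unc5 receptors, and it guides RGC axons into the optic nerve at the optic disc. Repulsive guidance molecules such as Rgma bind neogenin and are also BMP co-receptors.

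Slit genes also carry microRNAs of the miR-218 family in their introns. Their mature sequences are shown because this locus bears on how reads were assigned to a strand. They were taken from RefSeq (GRCr8), and capitals mark the seed, bases 2 to 8.

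rno-miR-218a-5p: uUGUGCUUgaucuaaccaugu
rno-miR-218b: cAUGGUUAgaucaagcacaa

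The 21 bases of miR-218a-5p are identical in Mir218-1, which lies in Slit2 on the same strand, and in Mir218-2, which lies in Slit3. The 20 bases of miR-218b, from Mir3565 on the opposite strand of the Slit2 locus, lie within the reverse complement of miR-218a-5p. In the table, on rn6, Mir218-1 spans chr14:66923083-66923192 and Mir3565 spans chr14:66923083-66923196. Both rows hold the same reads in every library: 0, 2 and 0 in vehicle libraries A, B and C, and 0, 3 and 1 in the Chrdl1 libraries. Of 8 opposite-strand pairs of short single-exon genes in the whole table, 3 had any read, and in all 3 both members had the same reads in all 6 libraries. The labels name a stranded library kit, but the table does not separate the strands at these 3 loci, which hold 2, 6 and 8 reads in all. Whether the same holds elsewhere was not tested. Epha1 shares 144 bases of its span with Zyx, a gene on the other strand at 54.9 FPKM on average. Mir218-2 in Slit3 and Mir3573 in Efnb1 had 0 reads in all 6 libraries. Mir218-1 reads were too few for any comparison.

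Promoter windows are shown for Epha5, the guidance gene with the highest level, and for Robo2 and Slit3, which had the same order of levels across the title codes. Each runs from 250 bases before the annotated start to 50 bases after it, as RefSeq gives it on GRCr8, which is a different build from that of the table. Capitals mark each CG dinucleotide, the site of CpG methylation. The windows are chr14:24007872-24008171 on the plus strand for Epha5, chr11:26526363-26526662 on the minus strand for Robo2 and chr10:20075679-20075978 on the plus strand for Slit3.

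Epha5: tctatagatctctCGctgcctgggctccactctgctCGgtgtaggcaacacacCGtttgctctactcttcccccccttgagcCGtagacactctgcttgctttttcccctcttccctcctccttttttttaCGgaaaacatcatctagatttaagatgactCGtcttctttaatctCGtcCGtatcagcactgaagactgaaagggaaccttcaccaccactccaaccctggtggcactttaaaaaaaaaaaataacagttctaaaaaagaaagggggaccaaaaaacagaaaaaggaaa
Robo2: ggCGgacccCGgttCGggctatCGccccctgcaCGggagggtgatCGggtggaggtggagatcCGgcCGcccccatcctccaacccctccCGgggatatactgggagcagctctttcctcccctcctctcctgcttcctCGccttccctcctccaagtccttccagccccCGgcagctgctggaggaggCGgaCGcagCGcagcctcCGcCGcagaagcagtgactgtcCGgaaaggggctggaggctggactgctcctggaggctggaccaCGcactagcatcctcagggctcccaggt
Slit3: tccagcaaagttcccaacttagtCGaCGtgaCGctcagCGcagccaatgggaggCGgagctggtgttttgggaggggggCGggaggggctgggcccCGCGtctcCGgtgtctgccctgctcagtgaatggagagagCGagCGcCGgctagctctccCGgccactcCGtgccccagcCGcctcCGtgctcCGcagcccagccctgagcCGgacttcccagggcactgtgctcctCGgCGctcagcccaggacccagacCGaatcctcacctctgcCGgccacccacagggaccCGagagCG

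Epha5 has 8 CG dinucleotides in this window, Robo2 has 18 and Slit3 has 24. Of the 38 guidance genes, 31 matched the promoter table with 32 windows, since Robo1 has 2. The median over those windows was 18 CG, with a range of 6 in Robo4 to 45 in Efnb2, and the median over all 33469 windows of the table was 7. The 33469 windows were not filtered by gene type, whereas all 38 guidance genes are protein-coding. The 2 medians are thus of unlike sets, and their difference was not tested. Epha5, with the highest level, lies near that overall median, and Rgma, at 27.7 FPKM on average over 6 libraries, has 37. The motif ATTAAT, searched on both strands as part of a known site of POU4F factors, which act in RGCs, was in 5.21% of all windows and in 2 windows of guidance genes, those of Dcc and 1 of Robo1. A match in such a window is a description of its letters only.

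Read totals recovered from the FPKM scale ran from 14546596 in vehicle library B to 26551748 in vehicle library C. The guidance genes summed to between 281 and 349 FPKM per library. Of the 38, 8 averaged over 10 FPKM, 22 averaged from 1 to 10 FPKM and 8 averaged under 1 FPKM. In all, 30 passed the filter for testing, which was 3 or more libraries at or above 1 FPKM, with 48 to 6917 reads per gene and library. The RGC marker list, 10 of 11 genes present, summed to between 3316 and 4289 FPKM, and the RNA-binding protein Rbpms, a pan-RGC marker, ran from 78.4 to 98.1 FPKM. Other retinal cells were also represented, unequally between the codes. The 10 microglia and macrophage markers summed to 201, 24.95 and 252 FPKM in vehicle libraries A, B and C and to 166.5, 13.6 and 228 FPKM in the Chrdl1 libraries. All 9 tested microglia markers had a negative log2 fold change with Chrdl1, with a median of -0.31, where 38.4% of all transcripts were positive. In pair C, 4 of the 9 were higher in the Chrdl1 library. In limma, 0 had an unadjusted p under 0.05, where 0.173% of all transcripts did. With the title code as a replicate block 6 had one, where 5.15% of all transcripts did, and 0 passed the adjusted threshold in either fit. The 9 photoreceptor and bipolar markers summed to 15.8 to 16.5 FPKM in pairs A and B but 88.2 and 93.5 FPKM in pair C, where Crx, a photoreceptor and bipolar transcription factor, reached 44.4 and 45.5 FPKM. The 10 endothelial and mural markers summed to 95.1, 19.0 and 145 FPKM in vehicle libraries A, B and C and to 87.2, 12.8 and 140 FPKM in the Chrdl1 libraries. All 4 tested ones also had a negative log2 fold change, with a median of -0.20. The pairs differed: 1, 0 and 2 of the 4 were higher in the Chrdl1 library in pairs A, B and C. Of all transcripts, 43.8%, 43.5% and 39.4% were. In limma, 0 of the 4 had an unadjusted p under 0.05 (0.173% of all transcripts), and 1 had one with the block (5.15%). Again 0 passed the adjusted threshold in either fit. The astrocyte and Müller glia list summed to between 70.0 FPKM in Chrdl1 library B and 167 FPKM in vehicle library C. Amacrine and horizontal markers ran from 150 to 184 FPKM, with Lhx1 at 0 in every library, and the oligodendrocyte list from 13.5 to 19.1 FPKM. In bulk RNA, fewer cells of a type and less RNA per cell cannot be told apart, and the part of these cells in the guidance gene levels below was not tested.

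**Figure D1:**
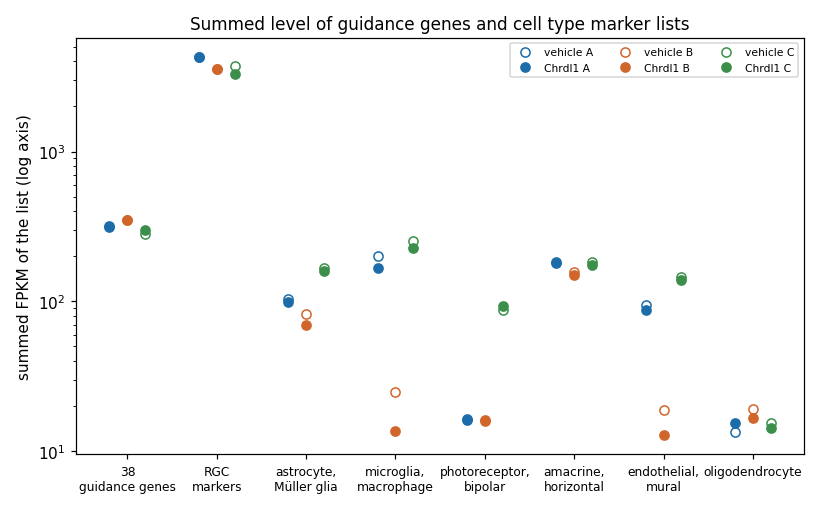
Summed FPKM (log axis) of the 38 guidance genes and of 7 cell type marker lists, with 1 point per library, open for vehicle and filled for Chrdl1, coloured by pair. The guidance genes stay between 281 and 349 FPKM, whereas the microglia list falls to 24.95 and 13.6 FPKM in pair B and the photoreceptor and bipolar list reaches 88.2 and 93.5 FPKM in pair C.

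The levels were led by a few genes per family. Epha5 was the most abundant guidance gene per length, followed by Robo2, Rgma, Efna5, Slit1, Unc5d, Slit2 and Unc5a, all averaging over 10 FPKM. Over the 6 libraries, Robo2 averaged 29.6 FPKM, Rgma 27.7 FPKM and Efna5 24.2 FPKM, and neighbours among these 3 differed by less than the SD over the 6 libraries. Epha5, at 53.2 FPKM or more, stood above the highest Robo2 value of 33.5 FPKM in every library. Slit1 at 19.0 ± 3.31 FPKM and Unc5d at 17.6 ± 3.42 FPKM (SD, n = 6) also differed by less than these SDs.

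**Figure D2:**
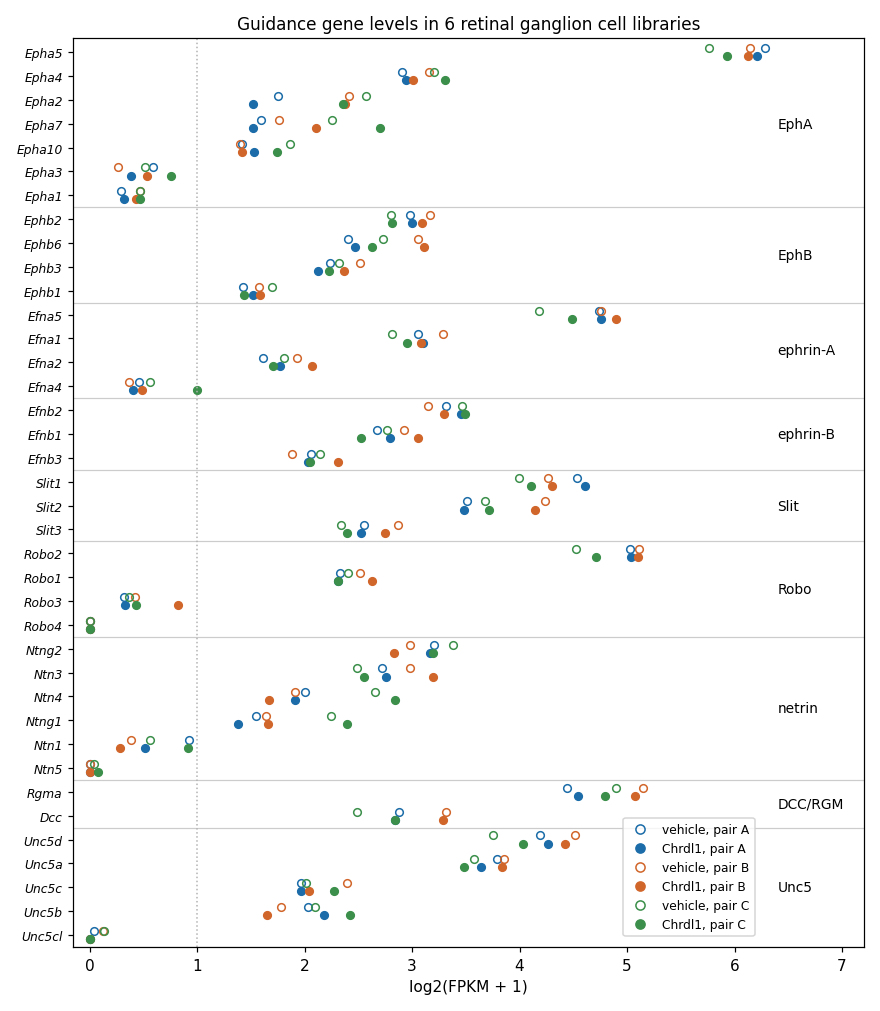
Level of each of the 38 guidance genes as log2(FPKM + 1), with 1 point per library, open for vehicle and filled for Chrdl1, coloured by pair; families are separated by lines and the dotted line marks an FPKM of 1. Epha5 lies farthest right, between 53.2 and 77.0 FPKM, and Robo4 is listed at 0 in all 6 libraries.

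Chrdl1 and vehicle libraries were first compared over all guidance genes. No guidance gene passed the threshold: 0 of the 30 tested genes had an adjusted p under 0.05 in limma with Benjamini-Hochberg adjustment over 10390 transcripts, where 0% of all transcripts did. None had an unadjusted p under 0.05 either, where 0.173% of all transcripts did. The adjusted p was 0.9998 for every guidance gene. With the title code as a replicate block, again 0 guidance genes had an unadjusted p under 0.05, where 5.15% of transcripts did. The log2 fold changes, Chrdl1 minus vehicle on the log2(FPKM + 1) scale, ran from -0.16 for Epha2 to 0.24 for Epha7. Of the 30, 15 had a positive and 15 a negative value, where 38.4% of all transcripts were positive. This split moved to 19 and 11 with quantile normalization, to 20 and 10 with median centring and to 23 and 7 with voom on the recovered reads, and the share positive over all transcripts moved to 50.3%, 44.9% and 47.4%. The median guidance gene was at -0.00013 and the median of all transcripts at -0.028. Within pairs A, B and C, the median guidance gene was at 0.016, -0.020 and 0.044, and 17, 13 and 18 of the 30 were higher in the Chrdl1 library, where 43.8%, 43.5% and 39.4% of all transcripts were. Efna5, Efnb2, Ntn3 and Slit1 were higher in the Chrdl1 library of all 3 pairs, 4 of 30 where 7.55% of transcripts were. Ephb3, Ntng2, Unc5a and Epha2 were lower in all 3 pairs, 4 of 30 where 19.5% of transcripts were. In 0 of the 30 tested guidance genes did the groups not overlap, where they did not in 2.44% of tested transcripts. A missed threshold does not show equal levels, so the intervals matter: in the fit with the block, the 95% intervals lay within 0.5 of 0 on the log2(FPKM + 1) scale for 29 of the 30 genes. The exception was Epha7, whose interval ran from -0.04 to 0.51. In the fit without the block, which gave the calls, the 95% intervals reached as low as -0.91 for Epha2 and as high as 1.01 for Epha7.

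**Figure D3:**
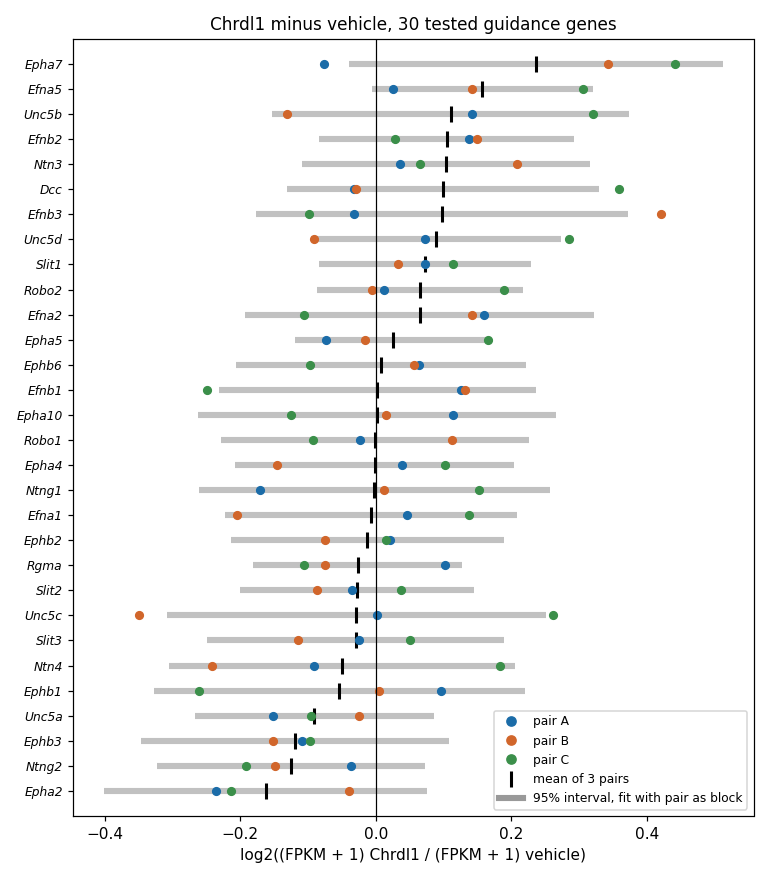
Difference between the Chrdl1 and vehicle library of each pair on the log2(FPKM + 1) scale for the 30 tested guidance genes, with the mean of the 3 pairs as a black tick and the 95% interval of the fit with pair as a block as a grey bar. The means run from -0.16 for Epha2 to 0.24 for Epha7 and every interval includes 0.

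Among the ephrin-A ligands, Efna5 was the most abundant and held 65.5% to 72.5% of the family's FPKM. Efna5, a repellent for temporal RGC axons, was at 25.7, 26.1 and 17.1 FPKM in vehicle libraries A, B and C and at 26.1, 28.9 and 21.4 FPKM in the Chrdl1 libraries. The Chrdl1 library was the higher of each pair, but the groups overlapped, and both libraries of pair C were low. Its log2 fold change was 0.16 ± 0.19 (SE, n = 3 per group; limma), with the smallest unadjusted p of any guidance gene. With the block, its adjusted p in limma was 0.872 and its 95% interval -0.01 to 0.32. Without vehicle library C the fold change turned to -0.03. Efna1, a ligand of Epha2, was at 7.31, 8.79 and 6.04 FPKM in vehicle libraries A, B and C and at 7.58, 7.49 and 6.74 FPKM in the Chrdl1 libraries. These groups overlapped, the pairs differed in direction, and the log2 fold change was -0.01 ± 0.16 (limma; 95% interval with the block -0.22 to 0.21). Efna2 ran from 2.06 to 3.21 FPKM on 48 to 86 reads, and Efna4 was below 1 FPKM in every library but Chrdl1 library C, at 1.00 FPKM on 29 reads, and was not tested.

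The ephrin-B ligands, which can also signal into the cell that bears them, were led by Efnb2. Its levels were 8.94, 7.88 and 10.0 FPKM in vehicle libraries A, B and C and 9.94, 8.85 and 10.2 FPKM in the Chrdl1 libraries. The Chrdl1 library was higher in each pair and the groups overlapped, with a log2 fold change of 0.10 ± 0.13 (limma; 95% interval with the block -0.08 to 0.29). Efnb1 was at 5.38, 6.62 and 5.83 FPKM in vehicle libraries and 5.95, 7.34 and 4.74 FPKM in Chrdl1 libraries A, B and C. The difference was positive in pairs A and B and negative in pair C, and the log2 fold change was 0.00 ± 0.17 (limma; 95% interval with the block -0.23 to 0.24). Efnb3, the lowest of the family, differed most in pair B, from 2.70 FPKM in the vehicle to 3.95 FPKM in the Chrdl1 library, and had differences of -0.03 and -0.10 on the log2(FPKM + 1) scale in pairs A and C. None of the 3 ephrin-Bs passed limma's F test of the title code, where 47.4% of all transcripts did.

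Epha5 dominated the EphA receptors, with 72.3% to 85.3% of the family's FPKM. It ranked 894 of 17366 by mean FPKM, and the table places it at chr14:25589767-25945420 on rn6. Epha5 is a receptor for ephrin-As on RGC axons. Its levels were 77.0, 69.5 and 53.2 FPKM in vehicle libraries A, B and C and 73.1, 68.8 and 59.8 FPKM in the Chrdl1 libraries. Both groups followed the order A, B, C from high to low, and they overlapped fully, at 66.6 ± 12.1 FPKM in vehicle and 67.2 ± 6.77 FPKM in Chrdl1 libraries (SD, n = 3). The log2 fold change was 0.03 ± 0.15 (limma), with a 95% interval of -0.12 to 0.17 in the fit with the block. Epha5 made up 79.3% ± 6.56 of EphA FPKM in the vehicle group and 79.5% ± 5.96 in the Chrdl1 group.

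The other EphA receptors were far lower. Epha4, which binds ephrins of both classes, was at 6.49, 7.90 and 8.22 FPKM in vehicle libraries A, B and C and 6.69, 7.05 and 8.90 FPKM in the Chrdl1 libraries. Its order across pairs was the reverse of that of Epha5, and its log2 fold change was -0.00 ± 0.15 (limma; 95% interval with the block -0.21 to 0.20). Epha2, which signals in many epithelia, was at 2.38, 4.34 and 4.93 FPKM in vehicle libraries A, B and C and at 1.87, 4.20 and 4.12 FPKM in the Chrdl1 libraries. It was lower with Chrdl1 in each pair by 0.24, 0.04 and 0.21 on the log2(FPKM + 1) scale, but both libraries of pair A lay below all others, and the log2 fold change was -0.16 ± 0.31 (limma; 95% interval with the block -0.40 to 0.08). Epha7 was at 2.02, 2.39 and 3.79 FPKM in vehicle libraries and 1.87, 3.30 and 5.51 FPKM in Chrdl1 libraries A, B and C. Its difference was negative in pair A and positive in pairs B and C, and the log2 fold change of 0.24 ± 0.33 (limma; 95% interval with the block -0.04 to 0.51) was the highest of the 30. Epha10, whose kinase domain is inactive, ran from 1.65 to 2.64 FPKM. Epha3 at 0.20 to 0.69 FPKM and Epha1 at 0.23 to 0.39 FPKM were not tested, and how reads were assigned where Epha1 and Zyx overlap was not tested.

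EphB receptors were more even, with Ephb2 at 33.4% to 41.8% and Ephb6 at 25.9% to 35.8% of the family's FPKM. Ephb2, a receptor that in mouse helps to order RGC axons along the dorsoventral axis, was at 6.90, 8.01 and 5.97 FPKM in vehicle libraries A, B and C and at 7.02, 7.55 and 6.04 FPKM in the Chrdl1 libraries. Its log2 fold change was -0.01 ± 0.15 (limma; 95% interval with the block -0.21 to 0.19). Ephb6, which lacks kinase activity, was at 4.29, 7.32 and 5.63 FPKM in vehicle libraries and 4.53, 7.65 and 5.20 FPKM in Chrdl1 libraries A, B and C. Pair B was highest in both groups and the treatment difference was small beside it, at 0.01 ± 0.24 (limma; 95% interval with the block -0.21 to 0.22). Ephb3 was at 3.72, 4.74 and 4.01 FPKM in vehicle libraries and 3.37, 4.16 and 3.69 FPKM in Chrdl1 libraries A, B and C. It was lower with Chrdl1 in each pair, by 0.11, 0.15 and 0.10 on the log2(FPKM + 1) scale, and the groups overlapped, with a log2 fold change of -0.12 ± 0.15 (limma; 95% interval with the block -0.35 to 0.11). Ephb1, known in mouse for routing a subset of RGC axons to the same side of the brain, was the lowest EphB, at 1.69 to 2.24 FPKM.

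**Figure D4:**
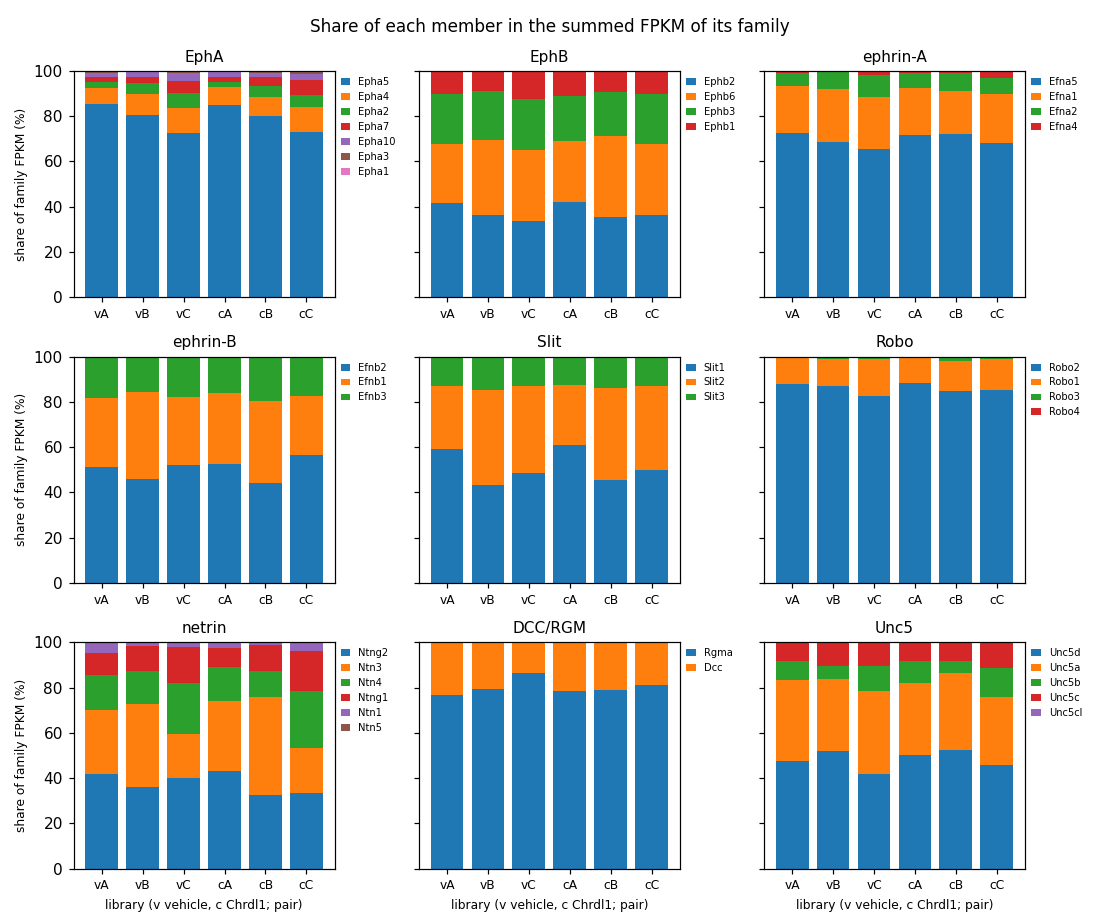
Share of each guidance gene in the summed FPKM of its family in percent, with 1 bar per library (v vehicle, c Chrdl1, then the pair) and 1 panel per family. Epha5 holds 72.3% to 85.3% of EphA FPKM and Robo2 holds 82.8% to 88.3% of Robo FPKM, and within netrins the share of Ntn3 is 36.4% and 43.3% in pair B but 19.5% and 19.9% in pair C.

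The cultures held mRNA of all 3 Slits. Slit1 was at 22.2, 18.3 and 14.9 FPKM in vehicle libraries A, B and C and at 23.4, 18.7 and 16.2 FPKM in the Chrdl1 libraries. Each Chrdl1 library was slightly above its vehicle partner, and the order A, B, C was the same in both groups, with a log2 fold change of 0.07 ± 0.18 (limma; 95% interval with the block -0.08 to 0.23). Slit2, at chr14:66831848-67170361 on rn6, was at 10.4, 17.8 and 11.8 FPKM in vehicle libraries A, B and C and at 10.2, 16.7 and 12.2 FPKM in the Chrdl1 libraries. Pair B stood above the others in both groups, and the log2 fold change was -0.03 ± 0.24 (limma; 95% interval with the block -0.20 to 0.14). Slit3 followed at 4.08 to 6.29 FPKM, again highest in pair B. Slit1 held 59.2% and 61.1% of Slit FPKM in pair A but 43.1% and 45.5% in pair B, where Slit2 was nearly level with it.

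Robo2, the main Slit receptor of RGC axons in mouse, held 82.8% to 88.3% of Robo FPKM. It was at 31.6, 33.5 and 22.0 FPKM in vehicle libraries A, B and C and at 31.9, 33.4 and 25.2 FPKM in the Chrdl1 libraries. Pair C was low in both groups and the log2 fold change was 0.06 ± 0.18 (limma), with a 95% interval of -0.09 to 0.22 in the fit with the block. Robo1 was at 4.04, 4.73 and 4.29 FPKM in vehicle libraries and 3.96, 5.19 and 3.96 FPKM in Chrdl1 libraries A, B and C. Its log2 fold change was -0.00 ± 0.15 (limma; 95% interval with the block -0.23 to 0.23). Robo3, a divergent Robo of commissural neurons, was at 0.25 to 0.77 FPKM. Robo4, known from endothelial cells, was listed at 0 in all 6 libraries, where 3 reads would have given between 0.0394 and 0.0719 FPKM; the table's LOC100911068 row shares 9951 bases of span with it and held 1 read, in vehicle library A.

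Netrin and netrin-G levels were spread over 4 genes. Ntng2, a lipid-anchored netrin-G that binds the synaptic adhesion protein Lrrc4, was at 8.19, 6.89 and 9.45 FPKM in vehicle libraries A, B and C and at 7.96, 6.12 and 8.15 FPKM in the Chrdl1 libraries. It was lower with Chrdl1 in each pair, the groups overlapped, and the log2 fold change was -0.13 ± 0.16 (limma; 95% interval with the block -0.32 to 0.07). Ntn3, a secreted netrin, was at 5.59, 6.90 and 4.61 FPKM in vehicle libraries and 5.75, 8.13 and 4.87 FPKM in Chrdl1 libraries A, B and C. It was higher in each Chrdl1 library of a pair, with a log2 fold change of 0.10 ± 0.21 (limma; 95% interval with the block -0.11 to 0.32). Ntn4, a netrin that binds laminin, was at 3.001, 2.76 and 5.32 FPKM in vehicle libraries A, B and C and at 2.75, 2.18 and 6.17 FPKM in the Chrdl1 libraries. Ntng1, the other netrin-G, was at 1.93, 2.13 and 3.74 FPKM in vehicle libraries and at 1.60, 2.15 and 4.27 FPKM in Chrdl1 libraries A, B and C. Both were highest in pair C in either group, and their log2 fold changes were -0.05 ± 0.35 and -0.00 ± 0.32 (limma; 95% intervals with the block -0.31 to 0.21 and -0.26 to 0.26). Ntn1, the netrin of the optic disc, was below 1 FPKM in every library, at 0.22 to 0.90 FPKM on 8 to 40 reads, and was not tested. Ntn5 had at most 2 reads, both of its libraries with a read being those of pair C.

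Dcc, the attractive netrin receptor, was at 6.35, 8.97 and 4.59 FPKM in vehicle libraries A, B and C and at 6.19, 8.77 and 6.17 FPKM in the Chrdl1 libraries. The difference was 0.36 on the log2(FPKM + 1) scale in pair C and -0.03 in both other pairs, and the log2 fold change was 0.10 ± 0.24 (limma; 95% interval with the block -0.13 to 0.33). Without both libraries of pair C it was -0.03. Rgma, which binds neogenin and acts as a BMP co-receptor, was at 20.7, 34.5 and 28.9 FPKM in vehicle libraries A, B and C and at 22.3, 32.7 and 26.8 FPKM in the Chrdl1 libraries. Its order A, C, B from low to high was the same in both groups, with means of 28.1 ± 6.93 and 27.3 ± 5.20 FPKM (SD, n = 3) and a log2 fold change of -0.03 ± 0.21 (limma; 95% interval with the block -0.18 to 0.13).

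Among the Unc5 genes, Unc5d and Unc5a together held most of the FPKM, Unc5d with 41.8% to 52.5% and Unc5a with 30.1% to 36.7%. Unc5d, a receptor that also binds the adhesion protein Flrt2, was at 17.3, 21.9 and 12.5 FPKM in vehicle libraries A, B and C and at 18.2, 20.5 and 15.4 FPKM in the Chrdl1 libraries. The 3 pairs did not share a direction, and the log2 fold change was 0.09 ± 0.21 (limma; 95% interval with the block -0.10 to 0.27). Unc5a was at 12.8, 13.5 and 10.9 FPKM in vehicle libraries and at 11.5, 13.2 and 10.2 FPKM in Chrdl1 libraries A, B and C. It was lower with Chrdl1 in each pair, by 0.15, 0.02 and 0.10 on the log2(FPKM + 1) scale, within groups that overlapped, and the log2 fold change was -0.09 ± 0.14 (limma; 95% interval with the block -0.27 to 0.09). Unc5b ran from 2.14 to 4.35 FPKM and Unc5c from 2.92 to 4.26 FPKM, and the differences of Unc5c in pairs B and C, -0.35 and 0.26 on the log2(FPKM + 1) scale, had opposite signs. Unc5cl, an intracellular death-domain protein rather than a netrin receptor, had 1, 2 and 4 reads in vehicle libraries A, B and C and 0 in each Chrdl1 library, too few for a fold change.

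The title codes were compared next, because libraries that share a code lay close together. In limma's F test of the code, 17 of the 30 guidance genes passed an adjusted p under 0.05, which is 56.7%, where 47.4% of all transcripts passed. The difference between these shares was not tested, and nothing particular to the guidance genes is read from it. The code took up 88.9% of the variance on the log2(FPKM + 1) scale both in the guidance genes and in all tested transcripts, and treatment took up 3.48% and 3.91%. For the pattern of the 17, codes were ranked by the lower value of their 2 libraries. The pattern was mixed: 10 were highest in code B, where 13.5% of all transcripts were called and highest in B, 5 in code C, where 22% were, and 2 in code A, where 12% were. Epha2 counts under code B in this ranking, although its mean was 4.27 FPKM in code B and 4.53 FPKM in code C. The libraries of the 3 codes did not overlap in 16 of the 30 genes, where they did not in 34.4% of all transcripts. In 7 of them, Ephb2, Slit3, Robo2, Ntn3, Dcc, Unc5a and Unc5d, the order from low to high was C, A, B. This was the most frequent order among the 16 and was picked from these same values. Of all transcripts 5.47% had it, no test of that difference was made, and nothing is read from it.

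The genes with the smallest p for the code held different patterns. Slit2 averaged 10.3, 17.3 and 12.0 FPKM in codes A, B and C (n = 2 each) and gave an F of 26.7 with an adjusted p of 0.00032 in limma. Rgma averaged 21.5, 33.6 and 27.8 FPKM, with an adjusted p of 0.000393 in limma. These 2 genes shared the order A, C, B from low to high. Ntn4, with means of 2.88, 2.47 and 5.74 FPKM and an adjusted p of 0.000393 in limma, was highest in code C. The photoreceptor and bipolar, microglia, endothelial and mural, and astrocyte and Müller glia marker sums were also highest in code C. The RGC, amacrine and horizontal, and oligodendrocyte sums were not. Ntng1 was also highest in code C, at 1.77, 2.14 and 4.00 FPKM in codes A, B and C (limma, adjusted p = 0.00117). Epha2 averaged 2.13, 4.27 and 4.53 FPKM (limma, adjusted p = 0.000548), so that code A stood apart. Robo2 averaged 31.7, 33.4 and 23.6 FPKM (limma, adjusted p = 0.0012), with code C apart. Epha5 averaged 75.0, 69.2 and 56.5 FPKM in codes A, B and C (limma, adjusted p = 0.00422), while Epha7, in the opposite order, averaged 1.95, 2.85 and 4.65 FPKM (limma, adjusted p = 0.00144). Code and the marker sums above cannot be told apart with 2 libraries per code.

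**Figure D5:**
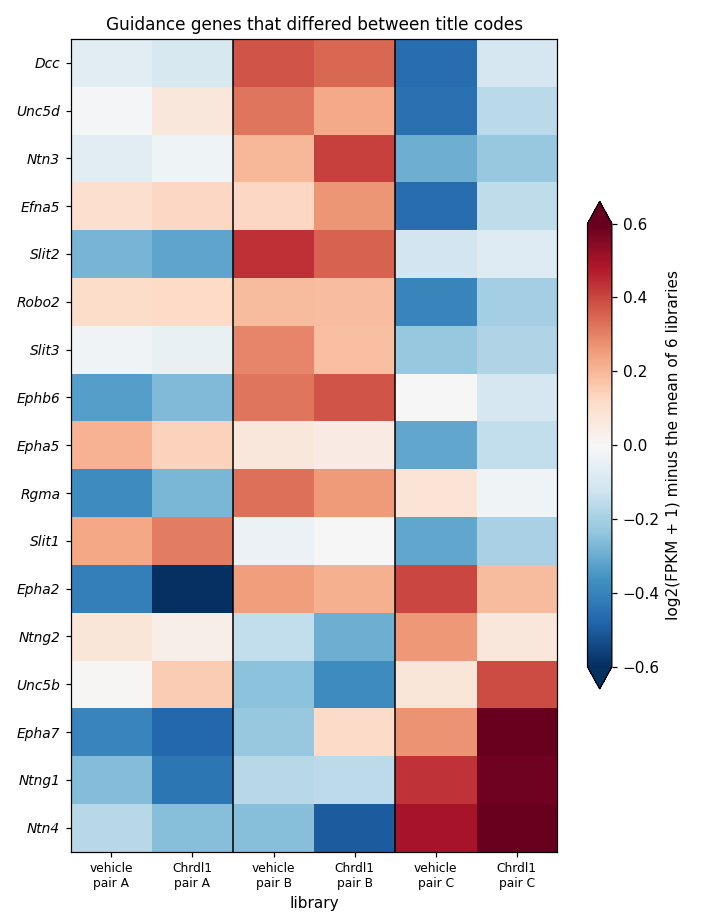
Heat map of the 17 guidance genes that differed between title codes in limma's F test, with libraries as columns grouped by pair and colour giving log2(FPKM + 1) minus the mean of the 6 libraries; values past 0.6 take the end colours. Rows are ordered by the difference between pairs C and B, from Dcc, Unc5d and Ntn3, low in pair C and high in pair B, to Ntng1 and Ntn4, high in pair C.

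The wider pathway was covered by a list of 65 signalling partners of these receptors, of which 63 were in the table and 61 were tested. None of the 61 passed the threshold for treatment in limma and 0 had an unadjusted p under 0.05, where 0.173% of all transcripts did. The fold change was positive in 31 and negative in 30, where 38.4% of all transcripts were positive. By pair, 21, 22 and 36 of the 61 were higher in the Chrdl1 library in A, B and C. Of all transcripts, 43.8%, 43.5% and 39.4% were. In all 3 pairs 6 were higher and 14 lower, where 7.55% and 19.5% of all transcripts were. The median was 0.005 on the log2(FPKM + 1) scale, and that of all transcripts was -0.028. Those with the smallest p included Pick1, a PDZ protein that can bind ephrin-Bs and Eph receptors, at 22.4, 25.3 and 24.3 FPKM in vehicle libraries A, B and C and 19.1, 23.5 and 22.6 FPKM in the Chrdl1 libraries. It was lower in each pair, with a log2 fold change of -0.14 ± 0.11 (limma). Rasa1, a Ras GTPase activator that binds activated EphB2, was at 33.4 ± 3.58 FPKM in vehicle and 36.7 ± 4.03 FPKM in Chrdl1 libraries (SD, n = 3). Nck2, an adaptor, was at 18.1 ± 1.24 and 16.5 ± 1.98 FPKM, and Flrt1, an adhesion protein that binds Unc5 receptors, at 3.15 ± 0.46 and 3.65 ± 0.23 FPKM. For the title code, 26 of the 61 passed, or 42.6%, below the 47.4% of all transcripts. Srgap1, which binds the intracellular part of Robo receptors, averaged 29.0, 36.5 and 17.4 FPKM in codes A, B and C (limma, adjusted p = 1.87e-05). Ngef, the exchange factor ephexin that acts downstream of EphA receptors, averaged 46.0, 66.6 and 38.3 FPKM (limma, adjusted p = 6.54e-05). Grip1, a PDZ scaffold that binds ephrin-Bs, averaged 47.9, 57.5 and 38.3 FPKM (limma, adjusted p = 0.000236). These 3 had the order C, A, B, as Robo2 did, whereas Rock1, a kinase that acts on the cytoskeleton, averaged 4.75, 8.98 and 11.8 FPKM (limma, adjusted p = 0.000243).

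A second list held 23 factors that set position or identity in the retina, of which 21 were in the table and 16 were tested. None passed the threshold for treatment in limma and 0 had an unadjusted p under 0.05, where 0.173% of all transcripts did. In this list 2 had positive and 14 negative fold changes, where 38.4% of all transcripts were positive. The pairs differed: 8, 5 and 3 of the 16 were higher in the Chrdl1 library in pairs A, B and C. Of all transcripts, 43.8%, 43.5% and 39.4% were. In all 3 pairs 5 were lower and 1 was higher, where 19.5% and 7.55% of all transcripts were. The median was -0.05 on the log2(FPKM + 1) scale, and that of all transcripts was -0.028. Vax2, a ventral retinal homeobox gene, was at 23.9, 24.7 and 25.0 FPKM in vehicle libraries A, B and C and at 21.1, 22.8 and 22.9 FPKM in the Chrdl1 libraries. These groups did not overlap, as in 2.44% of all transcripts, and the log2 fold change was -0.13 ± 0.08 (limma). Hmx1 was at 15.6 ± 1.01 and 14.3 ± 2.19 FPKM in vehicle and Chrdl1 libraries (SD, n = 3), Isl2, a factor of RGCs that cross the midline, at 8.72 ± 0.50 and 9.81 ± 1.72 FPKM, and Irx4 at 8.07 ± 1.96 and 7.34 ± 1.59 FPKM. For the title code, 9 of the 16 passed, or 56.2%, where 47.4% of all transcripts passed, and the difference was not tested. Bmp4, a BMP that patterns the dorsal retina, averaged 4.18, 1.02 and 5.96 FPKM in codes A, B and C (limma, adjusted p = 5.26e-06). Pou4f2, which drives RGC differentiation, averaged 28.5, 37.0 and 25.9 FPKM (limma, adjusted p = 0.000978) and Isl1, its partner, averaged 41.5, 48.2 and 36.1 FPKM (limma, adjusted p = 0.00343). Both had the order C, A, B, while Pax6, a retinal homeobox gene, averaged 64.2, 86.0 and 69.4 FPKM (limma, adjusted p = 0.00164).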

How the data were processed

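RNA of 6 RGC culture libraries, 3 per group, was analysed. Reads had been checked, aligned and counted with software listed, per the submitters' processing notes, as STAR 2.4.0k, HOMER 4.8.3 and FastQC on build rn6. Which annotation release was used is not given in the sources used here. In 1 table, the authors deposited FPKM values, fragments per kilobase of transcript scaled to the read total, with transcript lengths and coordinates. Whole reads were recovered from FPKM and length: 99.99% to 100% of values above 0 in each library came out whole within rounding, where 4.05% to 7.29% would by chance. In each library 62.7% to 65.8% of the recovered read total fell on the listed transcripts.

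Tests used limma 3.58.1 in R 4.3.3 (lmFit, eBayes with trend, two-sided) on log2(FPKM + 1), a scale that understates changes of low genes, over the 10390 transcripts that reached 1 FPKM in 3 or more libraries. Treatment was the only term; the title code was tested by an F test beside treatment. A call is a Benjamini-Hochberg adjusted p under 0.05. The scripts were tested on simulated data. Deviations from group means correlated at 0.82, 0.86 and 0.84 between the libraries of pairs A, B and C, so the codes were taken to pair the libraries. The guidance genes and both lists were chosen with earlier results of these data known. In the photoreceptor list, 1 gene is not reported here. Fold changes with SE and interval went to the 2 most abundant tested genes of each family. They also went to the 3 higher and 3 lower genes of smallest p with 1 direction in all pairs, and to the 6 of smallest title-code p. From each list, 4 genes for treatment are given with levels, and only Pick1 and Vax2 of these with a fold change and SE. The 4 genes per list for code are given with code means and adjusted p. Fold changes of other genes are given in passing. Alternatives were pseudocounts of 0.1 and 0.5, other filters on FPKM, quantile normalization, median centring, voom on recovered reads, the replicate block, and leaving out libraries or codes. Python 3.11.15, numpy 2.4.6, pandas 2.3.3 and matplotlib 3.10.9 were also used.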

Additional observations from a re-analysis of the deposited data

How the results depend on the processing

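Under every alternative that was run, 0 guidance genes and 0 of all transcripts passed the treatment threshold. The replicate block, with the title code as the pair, changed no call and left Efna5 at an adjusted p of 0.872 in limma; combined with voom it left Epha7 at a log2 fold change of 0.39 ± 0.15 (SE; adjusted p = 0.928), and with quantile normalization Efna5 at 0.19 ± 0.08 (SE; adjusted p = 0.944), each the 1 guidance gene of 30 with an unadjusted p under 0.05 in that fit, where 4.79% and 3.6% of all transcripts had one. With no filter on low values, 1 of 37 had one where 0.713% of all transcripts did, Unc5cl, which has 4 reads or fewer per library. The median log2 fold change of the guidance genes was 0.0405 with voom on recovered reads and 0.0335 with voom and the block, and ran from -0.0460 to 0.0727 on leaving out 1 library at a time, when the groups no longer hold the same codes. Transcripts called for the title code ran from 3148 to 5581 on leaving out 1 library, with the lowest count without Chrdl1 library A, and guidance genes called ran from 15 to 17 of 30, where 30.3% to 53.7% of all transcripts were. For the code, 22 of 30 guidance genes were called with quantile normalization, where 44.7% of all transcripts were, 23 of 30 with voom (54.8%), 19 of 30 with median centring (50.2%), 14 of 37 with no filter (28.7%) and 12 of 17 at an FPKM of at least 5 (47.6%). No title-code call of the 14 genes recomputed was lost, but these had been picked for the smallest title-code p in these same data. Their calls therefore say little of the other code calls. Of 510 recomputed log2 fold changes of 27 genes, 76 changed sign, 38 of them on leaving out 1 library, and none passed the threshold. The cause of these sign changes was not tested.

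Signs turned as follows. With median centring, the log2 fold changes were 0.0143 for Epha4, 0.00357 for Ephb2, 0.00894 for Efna1 and 0.0147 for Robo1. With quantile normalization, with or without the replicate block, the log2 fold changes were 0.0240 for Epha4, 0.00194 for Ephb2, 0.00237 for Efna1, -0.00393 for Efnb1 and 0.00803 for Rgma. With voom, the log2 fold changes were 0.0306 for Epha4, 0.0388 for Ephb2, 0.0578 for Efna1, 0.0188 for Slit2, 0.0345 for Robo1 and 0.0142 for Rgma. With voom and the replicate block, the log2 fold changes were 0.0361 for Epha4, 0.0136 for Ephb2, 0.0262 for Efna1 and 0.0172 for Robo1. Without both libraries of pair A, the log2 fold changes were -0.0208 for Ephb6, -0.0594 for Efnb1 and 0.00945 for Robo1. Without both libraries of pair B, the log2 fold changes were 0.0701 for Epha4, 0.0186 for Ephb2, -0.0166 for Ephb6, 0.0915 for Efna1, -0.0623 for Efnb1 and 0.00121 for Slit2. Without both libraries of pair C, the log2 fold changes were -0.0447 for Epha5, 0.0442 for Robo1, 0.0130 for Rgma, -0.0309 for Dcc and -0.00937 for Unc5d. On leaving out 1 library at a time, it ran from -0.125 to 0.137 for Epha5, -0.112 to 0.0695 for Epha4, -0.105 to 0.0806 for Ephb2, -0.180 to 0.171 for Ephb6, -0.0323 to 0.273 for Efna5, -0.127 to 0.111 for Efna1, -0.131 to 0.138 for Efnb1, -0.0639 to 0.208 for Slit1. It ran from -0.211 to 0.184 for Slit2, -0.116 to 0.184 for Robo2, -0.108 to 0.0521 for Robo1, -0.0757 to 0.243 for Ntn3, -0.221 to 0.133 for Rgma, -0.106 to 0.311 for Dcc, -0.113 to 0.271 for Unc5d and -0.254 to 0.0522 for Irx4. Depth limits the genes under 1 FPKM, such as Ntn1, with 8 to 40 reads per library.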
